A study of Mus musculus with 27 samples.

Results

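Bzw2, Cdca7 and Phb2 are 3 genes picked as early responders to Myc because their RNA was higher 2 h and 4 h after Myc was switched on in mouse pancreatic islets. All probe sets whose only gene symbol is Bzw2, Cdca7 or Phb2 were taken. Each gene has 1 probe set, 95462_at for Bzw2, 95063_at for Cdca7 and 98545_at for Phb2, so the members are 3 of the 8251 genes and 3 of the 12422 probe sets measured. RNA came from islets cut out of pancreas by laser capture and was hybridised to 27 Affymetrix arrays, 3 in each of 9 groups. Every mouse carried 2 transgenes under an insulin promoter, and insulin promoters drive expression in beta cells: MycER, a Myc protein that needs 4-hydroxytamoxifen (4OHT) to be active, and BclXL, a survival protein. The untreated mice carry both transgenes as well, and no group given only the vehicle is among the samples. Mice were killed untreated (time 0), or 2, 4, 8 or 24 h after a 4OHT injection. Others were given daily tamoxifen injections for 21 days (21 days below), and in the last 3 groups such a course was followed by 2, 4 or 6 days with no dose (2, 4 and 6 days off). The hours from the last daily injection to sampling at 21 days are not given in the labels used here. Age and strain are not in the labels used here, nor is it said that the 3 samples of a group are separate mice, so p-values measure the spread between these samples, which may be technical. Beta cell hormones were bright in every group: means of Ins2 (insulin) lay between 13.64 and 13.83 and those of Iapp (amylin) between 12.31 and 12.80 on the arrays' log2 scale. Other beta cell markers were less steady, with Slc2a2 at 10.52 in untreated and 8.89 in 21-day islets. At 21 days 10 of 15 beta cell markers were below untreated (5 called lower by limma) and 5 above. Clps, a marker of the digestive-enzyme (acinar) cells around islets, averaged 13.15 at 24 h and 8.64 at 21 days. The samples therefore held acinar RNA as well, in varying amounts.

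As background, Myc is a transcription factor that pairs with Max and binds the E-box CACGTG near the start of many genes, among them genes for ribosomes, translation, metabolism and division. Bzw2 encodes a protein with a W2 domain that mimics the initiation factor eIF5, and it makes ribosomes stricter in the choice of the start codon. Cdca7 encodes a zinc finger protein known as a Myc target, which in human cells recruits the chromatin remodeller HELLS and helps to maintain DNA methylation through division. Phb2 encodes prohibitin 2, which builds ring complexes with its partner Phb in the inner mitochondrial membrane and takes part in mitophagy.

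The promoters are shown because MycER is the agent under study and its motif can be read in them. By the RefSeq table for GRCm38.p6, Bzw2 lies on chromosome 12 (36091835 to 36156841, minus strand), Cdca7 on chromosome 2 (72476187 to 72486892, plus strand) and Phb2 on chromosome 6 (124712289 to 124716945, plus strand). These extents span all RefSeq transcripts of a gene. The sequences are the 250 bases 5′ of the single start that the RefSeq promoter table gives for each gene, in the direction of transcription, with a CACGTG motif in capitals. For Bzw2 the window is chr12:36156826-36157075 on the minus strand, for Cdca7 it is chr2:72475969-72476218 and for Phb2 chr6:124712039-124712288. The start used lies inside the gene's extent for Bzw2 and Cdca7, so the last 16 bases of the Bzw2 window and the last 32 of the Cdca7 window belong to the longest extent given above, against 0 for Phb2.
Bzw2: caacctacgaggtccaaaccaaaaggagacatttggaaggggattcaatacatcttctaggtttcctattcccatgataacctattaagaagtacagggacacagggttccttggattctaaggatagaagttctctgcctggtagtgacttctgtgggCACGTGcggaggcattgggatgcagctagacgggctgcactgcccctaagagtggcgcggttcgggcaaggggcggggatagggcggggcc
Cdca7: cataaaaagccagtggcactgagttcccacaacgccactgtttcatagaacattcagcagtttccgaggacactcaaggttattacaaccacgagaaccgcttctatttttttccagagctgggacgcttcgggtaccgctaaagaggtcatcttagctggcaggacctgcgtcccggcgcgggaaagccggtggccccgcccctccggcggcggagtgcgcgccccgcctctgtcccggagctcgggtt
Phb2: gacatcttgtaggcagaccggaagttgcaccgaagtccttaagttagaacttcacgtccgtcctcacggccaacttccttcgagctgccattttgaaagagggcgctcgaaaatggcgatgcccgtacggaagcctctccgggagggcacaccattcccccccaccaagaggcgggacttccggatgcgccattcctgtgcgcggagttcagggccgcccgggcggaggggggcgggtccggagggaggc
The Bzw2 window holds 1 CACGTG, whose first base lies 91 bases upstream of the start used for the window. No CACGTG is in the Cdca7 or the Phb2 window, and none of the 3 windows holds CACGCG, a variant E-box, on either strand (its reverse complement is CGCGTG). The windows differ in composition: GC content was 53.6% for Bzw2, 59.2% for Cdca7 and 63.2% for Phb2, with 9, 21 and 22 CpG dinucleotides. Among all 32851 mouse promoter windows of this length, 1978 (6.0%) hold CACGTG and the median GC content is 52.4%. CACGTG is its own reverse complement, so both strands are covered by 1 search. A match is a run of letters and does not show binding, and the absence of one says nothing about Myc at these genes.

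The level of each gene is an RMA value, a log2 scale on which 1 unit is a doubling of signal, and levels of different probe sets are not compared. Each group mean is over 3 arrays and is followed by its SD. Bzw2 read 9.53, 9.28 and 10.09 in the untreated islets, a mean of 9.63 ± 0.41. Its 3 arrays read 10.88, 10.81 and 11.12 at 2 h (10.94 ± 0.16), 10.93, 10.97 and 11.22 at 4 h (11.04 ± 0.16), and 10.87, 11.20 and 10.90 at 8 h (10.99 ± 0.18). Every array of these 3 early groups lay above every untreated array. At 24 h the arrays read 10.36, 10.71 and 10.53 (10.53 ± 0.18), below all 3 arrays of 8 h but still above all untreated ones. At 21 days Bzw2 read 10.90, 10.83 and 10.93 (10.89 ± 0.05), close to its level at 2 h. After withdrawal it read 11.12, 10.62 and 10.92 at 2 days off (10.89 ± 0.25), 10.66, 10.61 and 10.76 at 4 days off (10.68 ± 0.08), and 9.76, 9.99 and 9.89 at 6 days off (9.88 ± 0.12). Only the 6-day group overlapped the untreated arrays again.

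Cdca7 read 7.0, 6.94 and 7.47 in untreated islets (7.14 ± 0.29). Its arrays read 8.25, 8.51 and 8.54 at 2 h (8.43 ± 0.16), 8.44, 8.54 and 9.12 at 4 h (8.70 ± 0.37), and 8.49, 9.26 and 8.84 at 8 h (8.86 ± 0.39). At 24 h they read 6.94, 7.64 and 7.23 (7.27 ± 0.35), within reach of the untreated arrays and below every 8 h array. Cdca7 read 7.07, 7.16 and 7.46 at 21 days (7.23 ± 0.20), again overlapping untreated islets and below every array of 2, 4 and 8 h. How many hours after the last daily injection the 21-day islets were taken is not known. At 2 days off the arrays read 8.11, 8.47 and 7.89 (8.16 ± 0.29), above all untreated and all 21-day arrays. The values were 7.76, 7.55 and 7.44 at 4 days off (7.58 ± 0.16) and 8.23, 7.41 and 7.14 at 6 days off (7.59 ± 0.57). Replicate 1 of 6 days off and replicate 2 of 2 days off, the highest Cdca7 values of their groups, are among 4 arrays rich in leukocyte markers. Bacterial control probe sets, whose targets are in no mouse, averaged between 3.58 and 7.14. The brightest of them, PheX-3, lay between 6.92 and 7.50, and the next, ThrX-3, averaged 5.68 with a highest array of 5.98. A Cdca7 level near 7 was therefore above every control but PheX-3. It is not shown to be above the background that PheX-3 sets, and differences from such a level may be understated.

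Phb2 read 9.44, 9.28 and 9.36 in untreated islets (9.36 ± 0.08). Its arrays read 10.25, 10.36 and 10.29 at 2 h (10.30 ± 0.06), 10.80, 10.28 and 10.79 at 4 h (10.62 ± 0.30), 10.42, 10.79 and 10.87 at 8 h (10.69 ± 0.24), and 10, 10.53 and 10.69 at 24 h (10.41 ± 0.36). All 12 of these arrays lay above the highest untreated array. At 21 days Phb2 read 9.39, 9.17 and 9.89 (9.48 ± 0.37), with replicate 2 below every untreated array. It read 9.88, 9.79 and 9.93 at 2 days off (9.87 ± 0.07), above all untreated arrays, 9.65, 9.37 and 9.78 at 4 days off (9.60 ± 0.21), and 9.32, 9.28 and 9.47 at 6 days off (9.36 ± 0.10). The 6-day mean equalled the untreated mean to the second decimal.

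**Figure D1:**
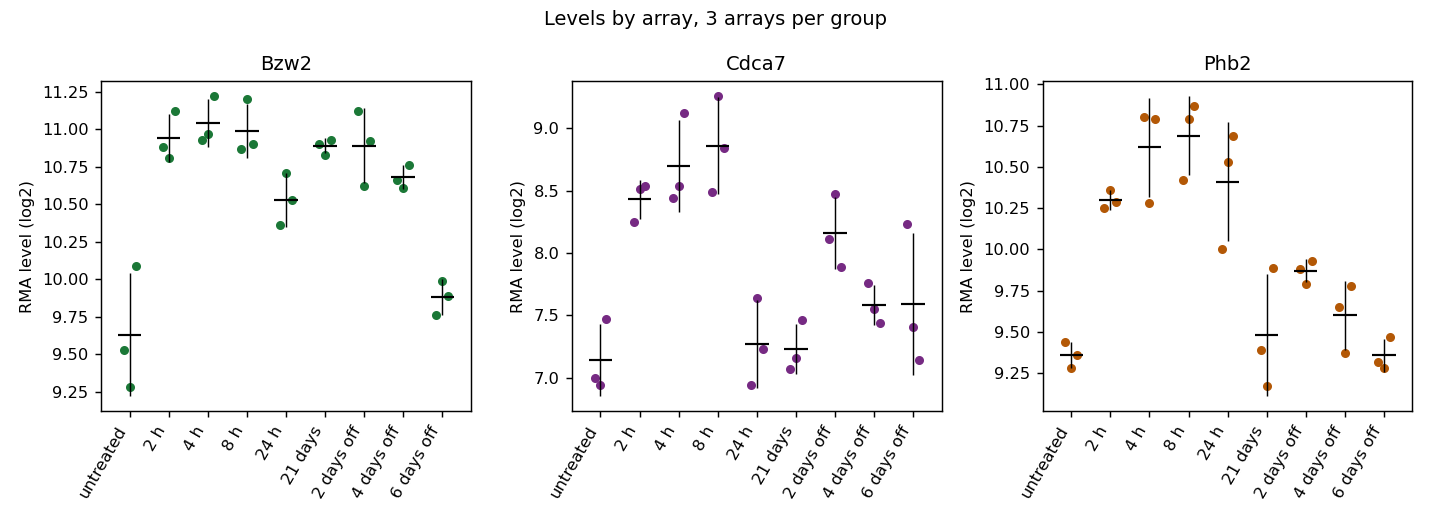
RMA level (log2) of Bzw2, Cdca7 and Phb2 on the y axis in the 9 groups on the x axis, in order of time; each point is 1 array, the horizontal bar the mean and the vertical line the SD of 3 arrays. All 3 genes are up at 2, 4 and 8 h; at 24 h Cdca7 is back at 7.27 while Phb2 is at 10.41, and at 21 days Bzw2 is at 10.89 while Phb2 is at 9.48.

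Because the genes were chosen for higher levels at 2 h and 4 h than in untreated islets, differences from untreated islets carry no test. They are given as a description, and all 8 share the same untreated arrays. The Bzw2 difference from untreated was 1.30 at 2 h, 1.41 at 4 h, 1.36 at 8 h, 0.90 at 24 h and 1.25 at 21 days on the log2 scale, then 1.25, 1.04 and 0.25 at 2, 4 and 6 days off (SE 0.16 each). For Cdca7 the differences were 1.30, 1.56, 1.73, 0.13 and 0.09 in the same order, then 1.02, 0.45 and 0.46 after withdrawal (SE 0.26 each). For Phb2 they were 0.94, 1.26, 1.33, 1.05 and 0.12, then 0.51, 0.24 and 0.00 (SE 0.18 each). As folds, the largest were 2.65 for Bzw2 at 4 h, 3.31 for Cdca7 at 8 h and 2.52 for Phb2 at 8 h. Over 2 to 8 h the differences of all 3 genes lay between 0.94 and 1.73, and later they lay further apart: 24 h islets had Bzw2 and Phb2 at 1.87 and 2.07 times their untreated levels and Cdca7 at 1.10 times, and 21-day islets had Bzw2 at 2.38 times and Cdca7 and Phb2 at 1.07 and 1.09 times. For scale, 0.412% of all genes were called higher than untreated at 2 h and 0.57% at 4 h, which are the contrasts the genes were picked from, and nothing is read from those shares. The RNA of cell type markers moved with these differences, which does not show whether cell makeup or RNA per cell differed. Acinar markers were above untreated in 15 of 15 at 2, 4 and 8 h (medians 1.46, 1.28 and 0.87). The untreated arrays themselves had acinar means from 8.0 to 10.86. Beta cell markers were below untreated in 13, 14 and 14 of 15 (medians -0.11, -0.25 and -0.53), and leukocyte markers were above in 29 of 32 at 2 h (median 0.47). In limma 0 acinar markers were called at 2, 4 and 8 h, with 3, 2 and 1 at an unadjusted p under 0.05, and 0 leukocyte markers at 2 h, with 6 at that level. At 2 h 0 beta cell markers were called, with 1 at that level, and 1 and 2 were called lower at 4 and 8 h. The acinar shift was largest at 24 h, with 15 of 15 above untreated (median 2.51, 2 called, 12 at that level). At 21 days 15 of 15 lay below untreated (median -1.95, 0 called, 6 at that level). Beta cell markers had 0 called lower at 24 h and 5 of 15 at 21 days. Of all 8251 genes, 113 were called higher at 24 h and 698 lower at 21 days. The 16 alternative fits include acinar and leukocyte marker means as covariates. Over them the 2 h differences ranged from 1.13 to 1.53 for Bzw2, 1.18 to 1.46 for Cdca7 and 0.9 to 0.98 for Phb2. At 4 h the ranges were 1.23 to 1.64, 1.35 to 1.73 and 1.17 to 1.43, and at 8 h 1.18 to 1.59, 1.53 to 1.91 and 1.24 to 1.47. These ranges are a description, and the part of the markers in the differences from untreated islets was not tested.

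In order from low to high, the Bzw2 group means ran untreated, 6 days off, 24 h, 4 days off, 21 days, 2 days off, 2 h, 8 h and 4 h. Arrays of neighbouring groups overlapped in all but 2 places in this order, between 6 days off and 24 h and between 4 days off and 21 days. Cdca7 ran untreated, 21 days, 24 h, 4 days off, 6 days off, 2 days off, 2 h, 4 h and 8 h, and every pair of neighbours overlapped. Phb2 ran untreated, 6 days off, 21 days, 4 days off, 2 days off, 2 h, 24 h, 4 h and 8 h. Its neighbours did not overlap between 4 and 2 days off or between 2 days off and 2 h. The means spanned 1.41 for Bzw2, 1.72 for Cdca7 and 1.33 for Phb2, against ranges among the 3 arrays of a group of 0.10 to 0.81, 0.29 to 1.09 and 0.11 to 0.72.

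Tests were made for 5 steps without the untreated, 2 h and 4 h arrays by which the genes were picked: 24 h against 8 h, 21 days against 24 h, and 2, 4 and 6 days off against 21 days. They share the 24 h and 21-day arrays and are not independent of each other. Genes and tests were chosen with earlier results of these data known, so the p-values are not free of that choice. Adjusted p-values are limma's, with Benjamini-Hochberg adjustment over all 12422 probe sets, and the threshold for a call is an adjusted p of 0.05. Of the 15 results, 3 were called, 1 per gene and each at a different step. In bulk tissue, fewer cells of a type and less RNA per cell cannot be told apart.

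Cdca7 fell between 8 h and 24 h. It averaged 7.27 ± 0.35 at 24 h and 8.86 ± 0.39 at 8 h, a log2 difference of -1.59 ± 0.26 (SE, 95% interval -2.12 to -1.06), or 0.331 times the 8 h level (limma adjusted p = 0.00474). All 3 arrays of 24 h lay below all 3 of 8 h, and 0.824% of genes were called lower and 1.32% higher in this step. Bzw2 had a difference of -0.46 ± 0.16 (interval -0.79 to -0.12, adjusted p = 0.177 in limma) with no overlap of arrays, and Phb2 one of -0.29 ± 0.18 (interval -0.66 to 0.09, adjusted p = 0.515 in limma) with overlap. Neither was called, and without 24 h replicate 1 the Phb2 difference was -0.08. Acinar markers, which mark the digestive-enzyme cells around islets, averaged 11.74 ± 0.30 at 24 h and 10.16 ± 1.17 at 8 h over 15 genes, of which 14 were higher at 24 h, 0 called by limma and 7 at an unadjusted p under 0.05. With the acinar and leukocyte marker means of each array as covariates the Cdca7 difference was -1.73 and stayed called (adjusted p = 0.0113, limma). Of 11 duct markers, 3 were called higher at 24 h than at 8 h, with a median of 0.50. The 3′ minus 5′ signal of the Gapdh control, a sign of RNA quality or amplification, averaged 3.78 ± 0.11 at 24 h and 4.78 ± 0.24 at 8 h. With it as a covariate the Cdca7 difference was -1.48 and stayed called (adjusted p = 0.0242, limma), and that of Bzw2 was -0.26 (adjusted p = 0.527, limma). The same signal of the Actin control differed in the other direction, 2.70 ± 0.24 at 24 h and 2.53 ± 0.29 at 8 h. The Actin signal was not used as a covariate.

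Phb2 fell between 24 h and 21 days of dosing. It averaged 9.48 ± 0.37 at 21 days and 10.41 ± 0.36 at 24 h, a difference of -0.92 ± 0.18 (95% interval -1.30 to -0.55), or 0.527 times the 24 h level (limma adjusted p = 0.00149). No 21-day array reached the lowest 24 h array. The hours since the last daily injection are not known for the 21-day islets. This step moved many genes, with 10.4% called lower and 11.4% called higher, so a call here is not rare. Bzw2 differed by 0.35 ± 0.16 (interval 0.02 to 0.69, adjusted p = 0.126 in limma), with all 3 arrays of 21 days above those of 24 h but no call. This Bzw2 difference was 0.45 and called under quantile normalization (adjusted p = 0.036, limma), 0.20 with the marker covariates (adjusted p = 0.673, limma) and 0.15 with the Gapdh covariate (adjusted p = 0.556, limma), so its size rests on the setting. Cdca7 differed by -0.04 ± 0.26 (interval -0.57 to 0.49, adjusted p = 0.935 in limma), an interval that still holds a change of 0.49 in either direction. Acinar markers moved with this step: they averaged 7.54 ± 0.32 at 21 days and 11.74 ± 0.30 at 24 h, and 14 of 15 were called lower, with a median log2 difference of -4.46. With the acinar and leukocyte marker means as covariates the Phb2 difference was -0.76 and was no longer called (adjusted p = 0.138, limma), and the part of acinar RNA in it cannot be told apart from that of time. Across the 27 arrays Phb2 correlated with the acinar mean at r = 0.63, and at r = 0.13 once group means were taken out. Duct markers had 3 of 11 called lower at 21 days, with a median of -0.36. The Gapdh 3′ minus 5′ signal averaged 4.83 ± 0.08 at 21 days and 3.78 ± 0.11 at 24 h, and with it as a covariate the Phb2 difference was -0.91 and stayed called (adjusted p = 0.00649, limma). The Actin signal differed in the other direction, 2.39 ± 0.35 at 21 days and 2.70 ± 0.24 at 24 h.

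Bzw2 fell between 21 days and 6 days off. It averaged 9.88 ± 0.12 at 6 days off and 10.89 ± 0.05 at 21 days, a difference of -1.01 ± 0.16 (95% interval -1.34 to -0.67), or 0.498 times the 21-day level (limma adjusted p = 0.00537). The groups were far apart, with 9.99 the highest array at 6 days off and 10.83 the lowest at 21 days, and 0.218% of genes were called lower in this step, 18 genes in all, and 0.121% higher. At 2 days off the Bzw2 difference from 21 days was 0.00 ± 0.16 (interval -0.34 to 0.34), and 0.158% of genes were called higher and 0.0121% lower there. At 4 days off it was -0.21 ± 0.16 (interval -0.55 to 0.13, adjusted p = 0.394 in limma) and -0.02 with the Gapdh covariate, a step where 4.52% of genes were called higher and 2.39% lower. Bzw2 at 4 days off was still 2.06 times untreated, and at 6 days off 1.19 times. Leukocyte markers averaged 8.29 ± 0.58 at 6 days off and 7.59 ± 0.06 at 21 days, with 30 of 32 markers higher, 0 called by limma and 11 at an unadjusted p under 0.05. With the marker means as covariates the Bzw2 difference was -0.88 and missed the threshold (adjusted p = 0.0657, limma), and without the leukocyte-rich arrays it was called (adjusted p = 0.0379, limma). The Gapdh 3′ minus 5′ signal averaged 3.92 ± 0.47 at 6 days off and 4.83 ± 0.08 at 21 days. Bzw2 correlated with it at r = 0.58 within groups, and with it as a covariate the difference was -0.83 (adjusted p = 0.0311, limma). The Actin signal differed in the other direction, 2.85 ± 0.23 at 6 days off and 2.39 ± 0.35 at 21 days.

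Cdca7 and Phb2 did not pass the test at any time after withdrawal. Cdca7 was higher at 2 days off than at 21 days by 0.93 ± 0.26 (interval 0.40 to 1.46), 1.9-fold, with no overlap of arrays and an adjusted p of 0.124 in limma. With array weights it was called (0.92, adjusted p = 0.027, limma), and without the leukocyte-rich arrays it was 0.77 (adjusted p = 0.327, limma). At 4 and 6 days off the Cdca7 difference was 0.35 (interval -0.18 to 0.88) and 0.36 (interval -0.17 to 0.89), and without replicate 1 of 6 days off the 6-day value was 0.04. Phb2 differed from 21 days by 0.38 (interval 0.01 to 0.76), 0.12 (interval -0.26 to 0.49) and -0.13 (interval -0.50 to 0.25) at 2, 4 and 6 days off.

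**Figure D2:**
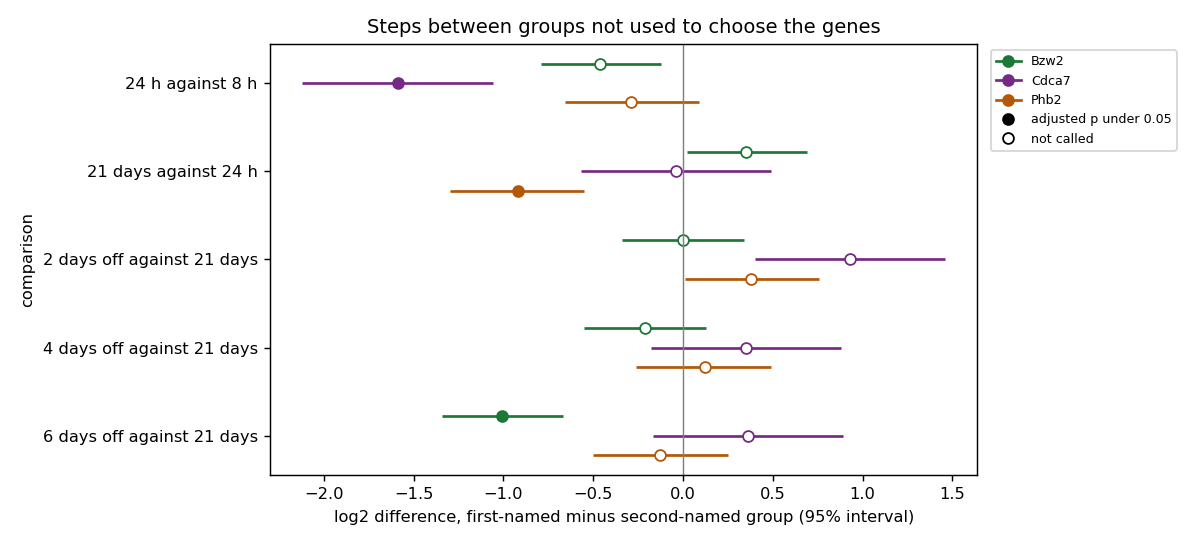
Log2 difference (x axis) of Bzw2, Cdca7 and Phb2 in the 5 tested steps (y axis), first-named group minus second; points are limma estimates, lines their 95% intervals, and filled points passed an adjusted p of 0.05. Cdca7 is filled at 24 h against 8 h (-1.59), Phb2 at 21 days against 24 h (-0.92) and Bzw2 at 6 days off against 21 days (-1.01).

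Whether the 3 genes differed from each other in a step was tested directly by an exact permutation of the 6 arrays on the difference of their changes, for 15 pairs of genes and steps. At 24 h against 8 h the change of Cdca7 minus that of Phb2 was -1.31, and that of Bzw2 minus that of Cdca7 was 1.14 on the log2 scale. At 21 days against 24 h Bzw2 minus Phb2 was 1.28, and at 6 days off against 21 days Bzw2 minus Cdca7 was -1.37 and Bzw2 minus Phb2 -0.88. Each of these has an exact two-sided p of 0.1, the smallest that 3 arrays against 3 can give, and 0.167 after Benjamini-Hochberg adjustment over the 15, so no pair passes. Over the 27 arrays the levels correlated at r = 0.61 for Bzw2 and Cdca7, 0.63 for Bzw2 and Phb2, and 0.69 for Cdca7 and Phb2. With group means taken out these were 0.34, 0.31 and 0.30; arrays share hybridisation and islet makeup, and the values are a description.

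Close relatives of 2 members were measured as well. Bzw1, which encodes the second eIF5 mimic, read 6.41, 6.28 and 5.99 at 2 h and 5.45, 5.70 and 5.92 in untreated islets, a difference of 0.54 that did not pass (adjusted p = 0.473, limma). It did not pass at 4, 8 or 24 h either. Bzw1 read 7.56, 7.17 and 7.56 at 4 days off, where it was 1.74 above untreated (adjusted p = 0.000244, limma), and it was also higher at 2 days off by 1.36 (adjusted p = 0.00191, limma) and at 6 days off by 1.56 (adjusted p = 0.00145, limma). At 21 days the difference of 1.0 passed (adjusted p = 0.022, limma) and was lost without replicate 1 or 2 of the untreated islets (p up to 0.082) or of 21 days (p up to 0.069). The 21-day call was also lost with the acinar and leukocyte covariates. At 6 days off, where Bzw1 was above untreated islets, Bzw2 overlapped them. The Bzw1 call at 6 days off was lost in a fit to only the 6 arrays compared. The Bzw1 level of untreated islets, 5.69 ± 0.24, lay within the range of the bacterial control means. Against untreated islets, 7.95% of genes were called higher at 21 days, 11.7%, 14.1% and 5.56% at 2, 4 and 6 days off.

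Cdca7l, the paralogue of Cdca7, whose human protein binds Myc, read 8.25, 8.27 and 7.90 at 21 days and 7.39, 7.26 and 7.05 at 24 h. It rose in this step by 0.91 ± 0.16, 1.87-fold (adjusted p = 0.000597, limma). The 24 h level of Cdca7l, 7.23 ± 0.17, lies in the range of the brightest bacterial control, as does that of Cdca7, and above all other controls. Neither gene is shown to be above that brightest control there, and the size may be understated. Against untreated islets Cdca7l differed by -0.01 at 2 h, 0.41 at 4 h and 0.49 at 8 h with no call, and was higher at 21 days by 1.08 (adjusted p = 0.000165, limma) and at 2 days off by 1.19 (adjusted p = 4.92e-05, limma). It was also higher at 4 days off by 0.55 (adjusted p = 0.0143, limma) and at 6 days off by 0.73 (adjusted p = 0.00509, limma). The 6-day call of Cdca7l was lost in a fit to only the 6 arrays compared. The difference in course between the relatives and the members was not tested. Hells, the remodeller that Cdca7 recruits, averaged between 3.01 and 3.27 in the 9 groups, under the lowest bacterial control mean of 3.58, so its level could not be told from background. The probe set for Phb, the ring partner of Phb2, carries several symbols and was not analysed here.

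**Figure D3:**
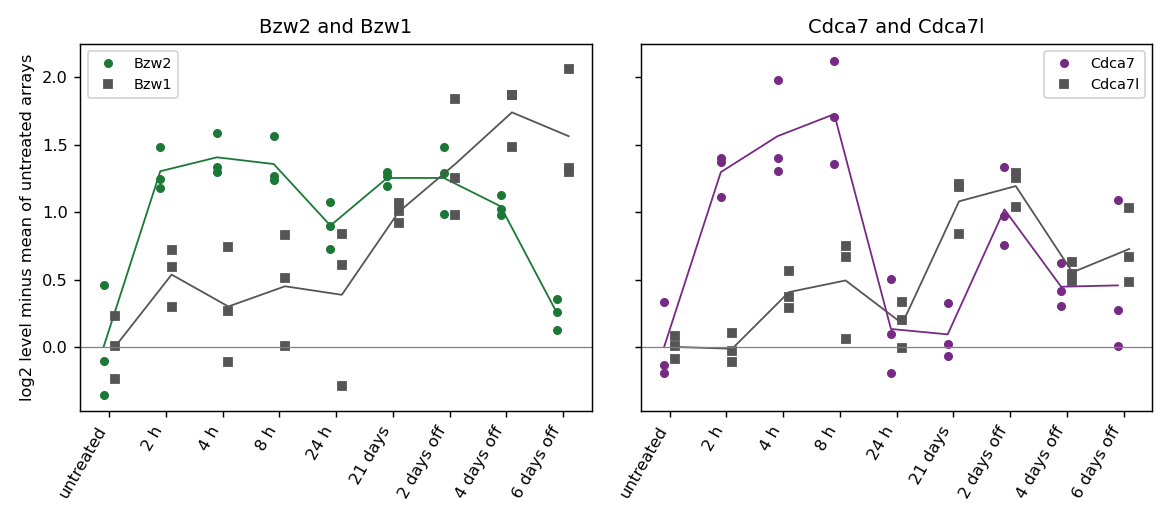
Log2 level minus the mean of the untreated arrays (y axis) of Bzw2 with Bzw1 and of Cdca7 with Cdca7l in the 9 groups (x axis); points are arrays and lines join group means of 3. Bzw1 is 1.56 and Bzw2 0.25 above untreated at 6 days off, and Cdca7l is 1.08 and Cdca7 0.09 above untreated at 21 days.

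The proteins that work beside the members were followed as 3 lists, together with a list of genes classically described as induced by Myc, and the members are in none of them. The start codon list has initiation factors around eIF2, eIF3 and eIF5 (24 of 31 measured), the inner membrane list has proteases, scaffolds and import parts of mitochondria (15 of 24), the DNA methylation list has methyltransferases and their helpers (11 of 19), and the Myc list has 44 of 50. At 2, 4 and 8 h against untreated islets the start codon list had 0, 0 and 1 genes called higher and the inner membrane list 0, 0 and 0, with none called lower. Of all genes, 0.412%, 0.57% and 1.15% were called higher at 2, 4 and 8 h and 0.0727%, 0.339% and 0.764% lower. At an unadjusted p under 0.05 in limma, 3, 5 and 6 start codon genes and 0, 1 and 3 inner membrane genes passed. Their median differences were 0.17, 0.18 and 0.21 for the start codon list and 0.00, 0.05 and 0.15 for the inner membrane list, against -0.06, -0.02 and -0.05 for all genes. The DNA methylation list had 0 calls by limma at 2 and 4 h (0 and 3 at an unadjusted p under 0.05), and at 8 h 1 called higher, Uhrf1, and 1 lower, Dnmt3a. Uhrf1, which guides the maintenance methyltransferase to DNA, was 0.95 ± 0.23 higher (adjusted p = 0.0368, limma). It lost the call without any 1 of the 8 h arrays or of untreated replicates 2 and 3 (adjusted p up to 0.205, limma). Dnmt3a, a methyltransferase that sets new methylation, differed by -0.41 ± 0.10 (adjusted p = 0.037, limma) and lost the call without any 1 of the 6 arrays but 8 h replicate 2 (adjusted p up to 0.153, limma). The start codon gene at 8 h was Eif3b, an eIF3 subunit, at 0.52 ± 0.12 (adjusted p = 0.0237, limma), which lost the call without replicate 2 or 3 of either group (adjusted p up to 0.0866, limma). Second probe sets of Dnmt3a and Eif3b differed by -0.06 and -0.12 there, with no call, the one for Eif3b in the opposite direction. The Myc list had 3, 2 and 5 genes called higher and 0 lower, with medians of 0.26, 0.26 and 0.39. Among them at 2 h, Eif4ebp1, a brake on cap-dependent translation, averaged 8.58 ± 0.22 at 2 h and 7.42 ± 0.21 untreated, a difference of 1.16 ± 0.17 (adjusted p = 0.00325, limma). Bop1, a ribosome assembly factor, averaged 9.10 ± 0.11 at 2 h and 8.24 ± 0.31 untreated, a difference of 0.86 ± 0.14 (adjusted p = 0.00501, limma), while a second Bop1 probe set differed by -0.14 with no call.

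At 21 days against 24 h, where Phb2 fell, 5 inner membrane genes were called lower and 1, the protease Htra2, higher, with a median of -0.14 against 0.06 for all genes, of which 10.4% were called lower and 11.4% higher. A second Htra2 probe set differed by -0.54, the opposite direction, with no call. Samm50, which inserts barrel proteins into the outer membrane and joins the inner membrane scaffold, averaged 8.49 ± 0.29 at 21 days and 9.68 ± 0.23 at 24 h (difference -1.19 ± 0.18, adjusted p = 0.000166, limma). Afg3l1, a subunit of an inner membrane protease, averaged 8.48 ± 0.04 at 21 days and 9.56 ± 0.10 at 24 h (difference -1.08 ± 0.12, adjusted p = 1.22e-05, limma). Chchd6, a part of the cristae scaffold, differed by -0.91 ± 0.20 (adjusted p = 0.00317, limma). These 3 kept their calls with the marker covariates, under which Phb2 lost its own. In the start codon list 6 were called lower and 0 higher, with a median of -0.12. Eif3l, an eIF3 subunit, averaged 9.06 ± 0.11 at 21 days and 10.31 ± 0.21 at 24 h (difference -1.25 ± 0.11, adjusted p = 5.29e-07, limma), while a second, less bright Eif3l probe set differed by -0.12 with no call. Eif2b5, the catalytic subunit of the exchange factor of eIF2, differed by -1.14 ± 0.18 (adjusted p = 0.000249, limma), and Bzw2 in the same islets by 0.35. The Myc list had 12 called lower and 3 higher, with Nme2, a nucleoside diphosphate kinase, at -1.49 ± 0.23 (adjusted p = 0.000179, limma) and Bop1 at -1.16 ± 0.14 (adjusted p = 1.94e-05, limma); a second Bop1 probe set differed by 0.63 in the opposite direction and was called (adjusted p = 0.0221, limma). In the DNA methylation list 1 was higher, Cdca7l, and 1 lower, Mbd2, a reader of methylated DNA, at -0.51 ± 0.16 (adjusted p = 0.0289, limma), a call lost without any 1 of the 6 arrays but 21 days replicate 3 (adjusted p up to 0.127, limma). Acinar markers moved with all of these, and with the marker covariates 3 inner membrane, 3 start codon and 2 Myc list genes were called lower. The 10.4% above is from the fit without covariates, and the share of all genes in the covariate fit is not given here. Over all 16 alternatives the count of all genes called lower in this step ranged from 195 to 1205, so nothing is read from these list counts.

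At 24 h against 8 h, where Cdca7 fell, the DNA methylation list had 0 of 11 called by limma (3 at an unadjusted p under 0.05) and a median of 0.06, and the Myc list had 1 called lower, Polr1b of RNA polymerase I at -1.22 ± 0.30 (adjusted p = 0.0354, limma), and 0 higher of 44, with a median of -0.11. Polr1b lost its call without any 1 of the 6 arrays but 8 h replicate 3 (adjusted p up to 0.235, limma). At 6 days off against 21 days, where Bzw2 fell, the start codon list had 0 of 24 called by limma (3 at an unadjusted p under 0.05) and a median of 0.00, with 12 members positive and 12 negative. The inner membrane, DNA methylation and Myc lists also had 0 called there by limma, with 3, 1 and 6 at an unadjusted p under 0.05. At 2 days off against 21 days all 4 lists had 0 called by limma, with 8 start codon, 2 inner membrane, 0 DNA methylation and 9 Myc list genes at an unadjusted p under 0.05. At 4 days off 3 start codon genes (Eif1ax, Eif3c and Eif3d), 1 inner membrane gene (Parl) and 3 Myc list genes (Rrs1, Nme2 and Ddx21) were called higher and none lower, with differences of 0.58 to 1.03, in a step in which 4.52% of all genes were called higher and 2.39% lower. A second Eif1ax probe set differed by 0.32 with no call. Beta cell markers moved with this step, 14 of 15 positive and 3 called higher, with a median of 0.39. Without replicate 1 of 4 days off all 7 lost their calls in limma.

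The genes whose levels were most like each member over the 27 arrays were taken as the 5 with the highest Pearson r, as a description with no test. For Bzw2 these were Nsun2, an RNA cytosine methyltransferase (r = 0.89), Pdk1, a kinase that holds back pyruvate dehydrogenase (0.88), Slc6a15, a neutral amino acid transporter (0.84), Set, a histone chaperone (0.84), and Nup85 of the nuclear pore (0.84). In the step to 6 days off, in which Bzw2 differed by -1.01, the first 4 differed by -0.75, -0.86, -0.88 and -0.78, and Nup85 by -0.28. For Cdca7 they were Anp32b, a histone chaperone (0.86), Nup85 (0.83), the drug exporter Abcg2 (0.82), the lactate transporter Slc16a1 (0.80) and Clca3a1 (0.78). At 24 h against 8 h, where Cdca7 differed by -1.59, these differed by -0.59, -0.88, -1.06, -0.72 and -1.12. Slc16a1 and Clca3a1 averaged 4.07 and 6.12 at 24 h, within the range of the bacterial control means. The Clca3a1 mean lay below only the brightest control. Differences of both may be understated, and sizes are not ranked. For Phb2 they were Nhp2, a protein of snoRNA particles that modify ribosomal RNA (0.94), Imp4 (0.89) and Imp3 (0.88), both of the particle that processes small-subunit ribosomal RNA, Eif3b (0.87) and the spliceosomal Snrpa1 (0.86). At 21 days against 24 h they differed by -0.75, -0.63, -0.56, -0.38 and -0.62, against -0.92 for Phb2. Nup85 was in the sets of both Bzw2 and Cdca7, and no gene was in that of Phb2 and another. With group means taken out r was 0.64 for Nsun2 with Bzw2, 0.79 for Anp32b with Cdca7 and 0.71 for Nhp2 with Phb2. Of the 12 most alike genes with a promoter window, 4 (33.3%) hold CACGTG, against 8 of 37 (21.6%) of the Myc list and 6.0% of all windows. The start codon, inner membrane and DNA methylation lists had 13.0%, 7.1% and 0.0%. Median GC content was 53.4% for the alike genes, 64.8% for the Myc list and 52.4% for all windows. The alike genes were picked in these data. All windows are not limited to genes on the arrays or to 1 per gene, so nothing is read from these shares.

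**Figure D4:**
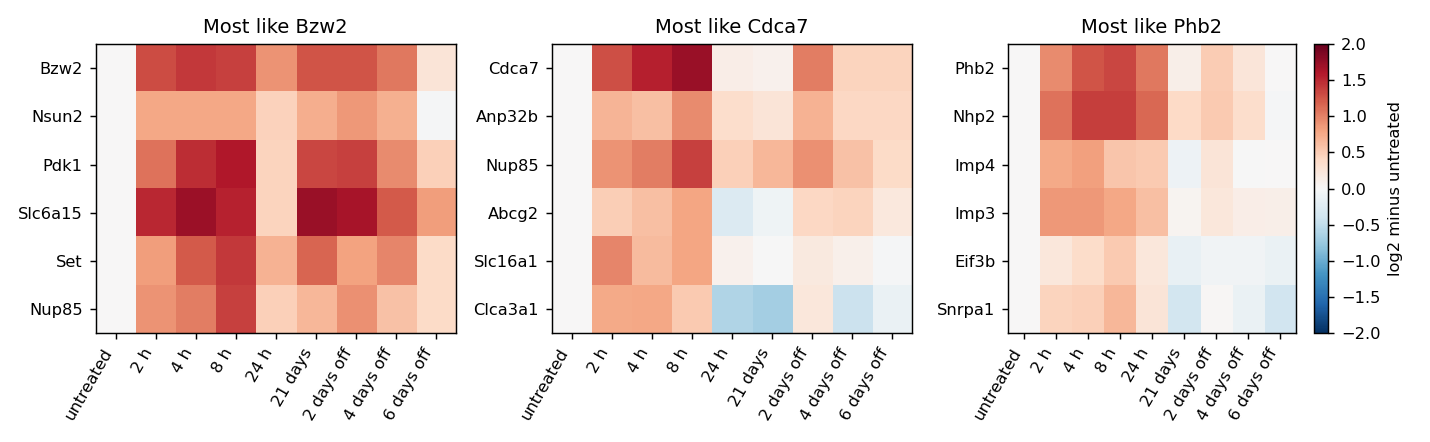
Log2 group mean minus the untreated mean (colour) for each member and the 5 genes most like it (rows) in the 9 groups (columns, in order of time), 3 arrays per group. At 21 days the rows of Bzw2 and its set lie between 0.66 and 1.71 above untreated, those of Cdca7 and its set between -0.68 and 0.66, and those of Phb2 and its set between -0.36 and 0.40.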

How the data were processed

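The authors' deposited values are log2 levels per probe set from RMA, per the submitters' processing notes, for total RNA that was linearly amplified 2 times and labelled with biotin, per the labels. The version of RMA is not given in the sources used here, and the log2 scale was read from the values. Array medians ranged over 6.91 to 7.01, and within-group correlations across probe sets over r = 0.957 to 0.992; the number of arrays limits the precision. The values were used as deposited. Of 12488 probe sets, 66 controls were left out; of the others, 10833 carried 1 gene symbol in the platform annotation, 396 several and 1193 none, and 10817 Entrez identifiers matched the GRCm38.p6 table. A gene is its probe set of highest mean. Groups came from the labels. limma 3.58.1 in R 4.3.3 was fitted to all 27 arrays with 9 group means (lmFit, eBayes, two-sided, Benjamini-Hochberg over 12422 probe sets) and tested on simulated data. Named genes are the members, the 5 most correlated genes of each, a short panel and, per list and comparison, the 3 called genes of largest change; not all are printed. The members, lists and tests were chosen with earlier results of these data known. Alternatives were quantile normalization, median centring of arrays, a filter that drops the dimmest 40% of probe sets, array weights, a robust variance with a trend, a replicate block, a fit to only the 6 arrays compared and fits without each array in turn, and for the lists also a gene averaged over its probe sets and a 2-fold minimum. Chosen later, with the data seen, were fits without 4 leukocyte-rich arrays (2 h replicate 1, 8 h replicate 3, 2 days off replicate 2 and 6 days off replicate 1), acinar and leukocyte marker means as covariates, and the Gapdh 3′ minus 5′ signal as a covariate. Replicate numbers were not used to pair samples in the main fit. Of 108 same-numbered pairs of deviations from group means, 36 had r over 0.1, in a range of -0.458 to 0.512. Differently numbered pairs were not computed for comparison, so these values do not decide whether samples were paired. Promoter windows are RefSeq sequence of GRCm38.p6.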

Additional observations from a re-analysis of the deposited data

Results flagged for a closer look

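Among the tested steps, each of the 3 genes had 1 that was called, by limma's test of the difference itself. Other pairs of groups were not tested for these genes, so the calls do not show that a gene changed at only 1 point. Bzw2 was lower at 6 days off than at 21 days by a log2 difference of -1.01 ± 0.16 (adjusted p = 0.00537, limma), with 3 of 3 arrays below all 21-day arrays. Cdca7 was lower at 24 h than at 8 h by -1.59 ± 0.26 (adjusted p = 0.00474, limma), with 3 of 3 arrays below. Phb2 was lower at 21 days than at 24 h by -0.92 ± 0.18 (adjusted p = 0.00149, limma), with 3 of 3 arrays below, and acinar markers moved with this step, 14 of 15 called lower.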

How the results depend on the processing

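The called steps kept their direction in all 16 alternatives. With only the 6 arrays compared, Bzw2 at 6 days off against 21 days (-1.01, adjusted p = 0.148) and Cdca7 at 24 h against 8 h (-1.59, adjusted p = 0.118) lost their calls in limma, a fit with fewer samples. The marker covariates ended the calls of Bzw2 (-0.88, adjusted p = 0.0657) and Phb2 at 21 days against 24 h (-0.76, adjusted p = 0.138). Without any 1 array all 3 stayed called: Bzw2 from -1.06 to -0.95, Cdca7 from -1.78 to -1.39, Phb2 from -1.13 to -0.77. With the replicate block the values were -1.01 (adjusted p = 0.00698), -1.59 (0.00675) and -0.92 (7e-04), and it changed no call of the members. Bzw2 at 21 days against 24 h was called under quantile normalization (0.45), and Cdca7 at 2 days off against 21 days with array weights (0.92; 0.77 to 1.06 without 1 array). Uncalled values near 0 changed sign. Bzw2 at 2 days off, 0.00 as reported and 0.00 in the 6 arrays, was 0.02 with median centring, 0.02 with array weights, 0.13 without the leukocyte-rich arrays, 0.06 with the marker covariates, 0.25 with the Gapdh covariate and -0.12 to 0.13 without 1 array. Cdca7 at 21 days against 24 h was 0.31 with the marker covariates and -0.20 to 0.15 without 1 array. Phb2 at 4 days off against 21 days was -0.01 under quantile normalization and -0.04 to 0.32 without 1 array, and at 6 days off -0.28 to 0.08. The cause was not tested. Counts of called genes moved more. At 6 days off against 21 days, 10 higher and 18 lower became 0 to 405 and 0 to 489; at 21 days against 24 h, 939 and 857 became 143 to 1695 and 195 to 1205. At 24 h against 8 h, 109 and 68 became 0 to 133 and 0 to 113; at 2 h against untreated, 34 and 6 became 0 to 91 and 0 to 12. At 4 h, 47 and 28 became 11 to 70 and 2 to 41 (14 and 2 without 4 h replicate 3); at 8 h, 95 and 63 became 2 to 153 and 2 to 100. At 2 days off against 21 days, 13 and 1 became 0 to 265 and 0 to 181; at 4 days off, 373 and 197 became 0 to 1022 and 0 to 1339 (0 and 0 without 4 days off replicate 1). Of 79 called results for named list genes, 46 held without any 1 array, 62 with the marker covariates and 38 in the 6 arrays, with 0 reversed.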
